A study of Mus musculus with 4 samples.

Results

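Potassium channel genes were examined in 2 mouse lines labelled as progenitors of interstitial cells of Cajal (ICC), which set the pace of contraction in the gut wall. The genes were taken by name, as every row of the deposited gene tables whose symbol starts with Kcn and goes on with letters and a closing number. This gave 92 of 23358 gene rows, of which 77 encode pore-forming subunits and 15 accessory subunits. Kcnq1ot1, Kcne1l and Kcnrg carry the same prefix but not this form of name and were not counted as members. The line 2xSCS2F10 was derived from the stomach muscle coat of C57BL/6J mice and grown at 37 °C, its medium holding 5% chick embryo extract. A second line, 2xSCS70, was derived from the same tissue of H-2Kb-tsA58 mice, in which an interferon-inducible promoter drives a heat-labile form of the SV40 large T antigen. It was grown at 39.5 °C, without interferon gamma. Both were grown in the same neural stem cell medium, and each line is 1 clone, so that clone, strain, transgene, temperature and extract changed together. Polyadenylated RNA was sequenced in 2 libraries per line, and the labels did not say whether these came from separate cultures. The p-values therefore set the difference between the lines against only the spread of these libraries within a line, and that spread may be technical.

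Potassium channels let potassium ions leave the cell and thereby pull the membrane potential down. Voltage-gated (Kv) channels open on depolarisation, calcium-activated channels open when calcium rises, inward rectifiers (Kir) and tandem-pore channels (K2P) set the resting potential, and accessory subunits change how the pore-forming ones open or reach the surface. In gut muscle these channels shape slow waves and relaxation, through large-conductance (BK) and small-conductance (SK) calcium-activated channels, ATP-sensitive Kir channels and ERG-type Kv channels among others.

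The libraries held 20159986 to 24485632 sequenced fragments in genes, and every deposited count was even, so that 1 fragment was taken as 2 counts. The label of the lines was checked against markers. Of the markers of interstitial cells of Cajal, Prkcq had 0 fragments in all 4 libraries and Kit a single fragment in 1 library of 2xSCS70. Ano1 stood at 4.99 and 2.58 RPKM (reads scaled to gene length and library size) in 2xSCS2F10 and at 0.43 and 0.44 RPKM in 2xSCS70. Gja1 was abundant in every library, at 36.8 and 27.6 RPKM against 26.5 and 25.3 RPKM, and 1.46-fold lower in 2xSCS70 (edgeR adjusted p = 0.0228). Etv1 had 1 and 7 fragments against 15 and 19 and did not pass. The progenitor markers Cd34, Cd44, Igf1r and Insr were all above 1 RPKM in every library, but not at equal levels. In 2xSCS70 Cd34 was 3.83-fold higher (edgeR adjusted p = 0.012) and Cd44 2.19-fold higher (0.0069). Igf1r was 1.48-fold lower there (0.0174), and Insr did not pass (0.839). Smooth muscle and mesothelial markers also moved with the lines. The 8 smooth muscle markers summed to 2421 and 3615 RPKM in 2xSCS2F10 and to 388 and 326 RPKM in 2xSCS70, and 7 of them were lower in 2xSCS70. The 6 mesothelial markers summed to 1257 and 1126 RPKM against 41.0 and 33.0 RPKM, and all 6 were lower. Of the 7 enteric neuron markers, Elavl4 was at 0 in all libraries, Ret stood at 1 fragment or fewer, and Uchl1 was the exception at 187 and 143 RPKM against 12.7 and 7.90 RPKM. In the other direction Prph rose 6.64-fold in 2xSCS70, with 3 and 6 fragments against 48 and 34 (edgeR adjusted p = 0.0113), and Elavl3 had 3 and 4 fragments against 11 and 17 and did not pass. The part of other cell states in the results below was not tested. In such bulk RNA, fewer cells of a kind and less RNA per cell cannot be told apart.

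Few potassium channel genes were expressed in either line. At 1 RPKM or more in both libraries, 5 members (5.43%) were found in 2xSCS2F10 and 7 (7.61%) in 2xSCS70, against 44.4% and 46.3% of all gene rows. Reaching this level in both lines were 3 members, the ERG-type channel Kcnh2, the A-type channel Kcnd1 and the accessory beta subunit Kcnab1. The K2P channel Kcnk2 and the M-type channel Kcnq5 reached it in 2xSCS2F10. In 2xSCS70 it was reached by the accessory subunits Kcnab2 and Kcnip3, the SK channel Kcnn1 and the sodium-activated channel Kcnt2. Together these 9 genes held 81.6% and 86.7% of the summed RPKM of all members in 2xSCS2F10 and 85.4% and 85.2% in 2xSCS70. By contrast 53 members (57.6%) never exceeded 3 fragments in a library, against 32.7% of all gene rows, and 21 members were at 0 in all 4 libraries. Kcnt2 lay close to the limit on both sides, at 1.13 and 1.08 RPKM in 2xSCS70 and at 0.921 and 1.15 RPKM in 2xSCS2F10, where it missed. Among genes that missed it in both lines, Kcnj14 stood at 0.578 and 0.579 RPKM and Kcnab3 at 0.802 and 0.512 RPKM in 2xSCS70, and the K2P channel Kcnk5 at 1.52 and 0.292 RPKM in 2xSCS2F10. At a limit of 0.5 RPKM the count in 2xSCS70 was 12 in place of 7, and at 2 RPKM it was 2.

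**Figure D1:**
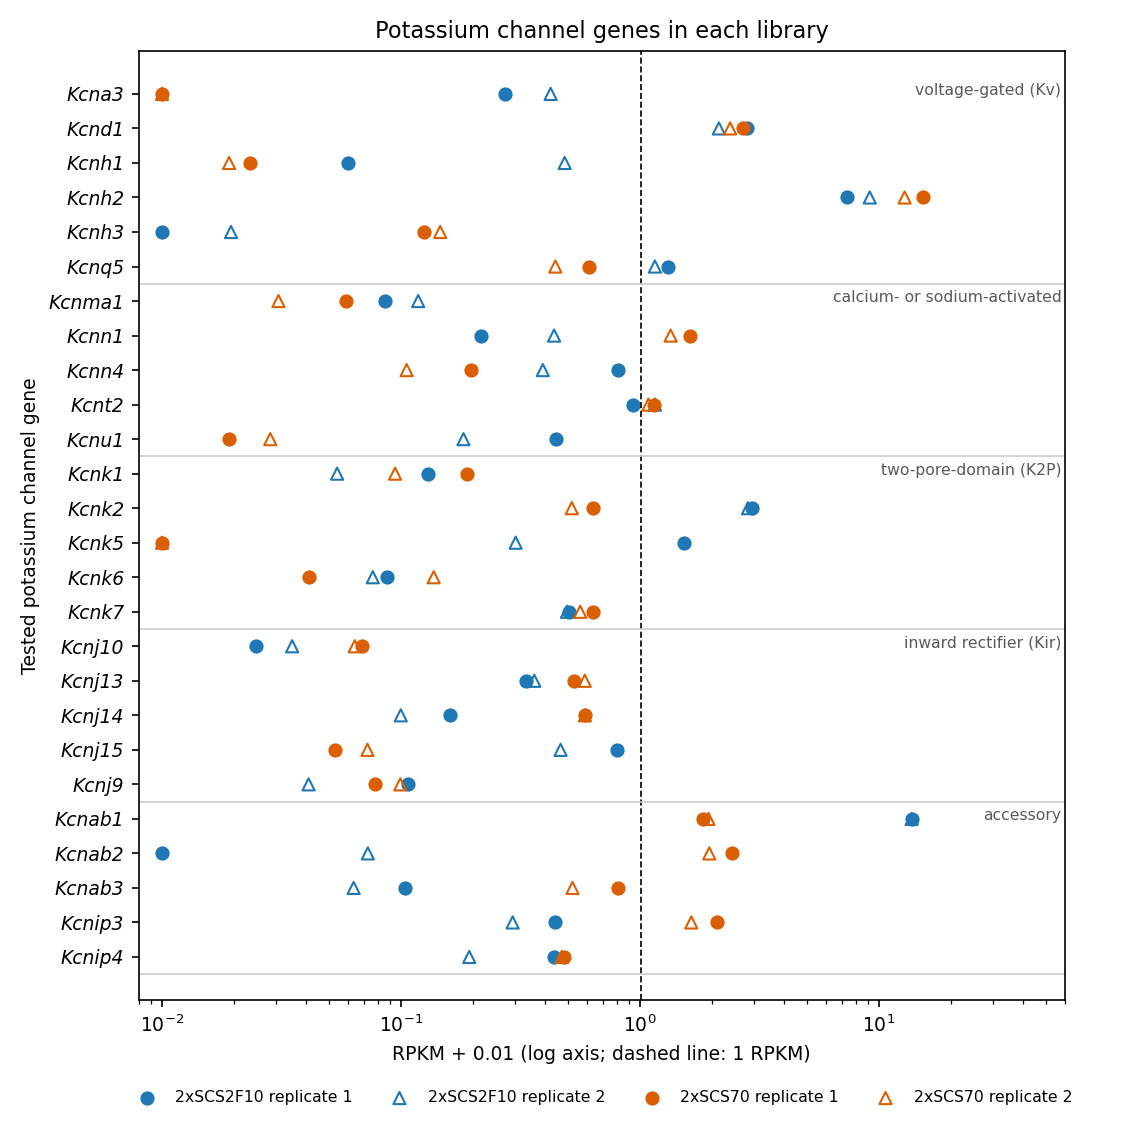
RPKM of 26 tested members in each library, on a log axis with 0.01 added and a dashed line at 1 RPKM, with filled circles for replicate 1 and open triangles for replicate 2. Kcnh2 and, in 2xSCS2F10, Kcnab1 stand above all other members, and most of the rest lie below 1 RPKM.

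In RPKM, which lack scaling between libraries, the summed level of the members was close in the 4 libraries. Its make-up differed between the lines. The summed level came to 36.3 and 35.6 RPKM in 2xSCS2F10 and to 33.1 and 28.2 RPKM in 2xSCS70. Kv channels summed to 12.4 and 14.0 RPKM in 2xSCS2F10 and to 19.0 and 16.0 RPKM in 2xSCS70. Of this, Kcnh2, whose difference did not pass, held 7.32 and 9.15 RPKM against 15.2 and 12.8 RPKM. Of the 7 Kv channels tested, 4 were called lower in 2xSCS70 and 1 higher. Accessory subunits gave 40.9% and 40.7% of the sum against 24.2% and 23.8%, and K2P channels 14.4% and 10.6% against 5.31% and 4.96%. Within the accessory share, Kcnab1 alone gave 37.8% and 38.5% against 5.53% and 6.83%. Of the 5 accessory subunits tested, 3 were called higher in 2xSCS70 and 1 lower. Kir channels stayed between 3.02% and 5.13% in all libraries. For the Kv sum and the accessory and K2P shares, the libraries of the lines did not overlap. With 2 libraries per line these sums were not tested.

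**Figure D2:**
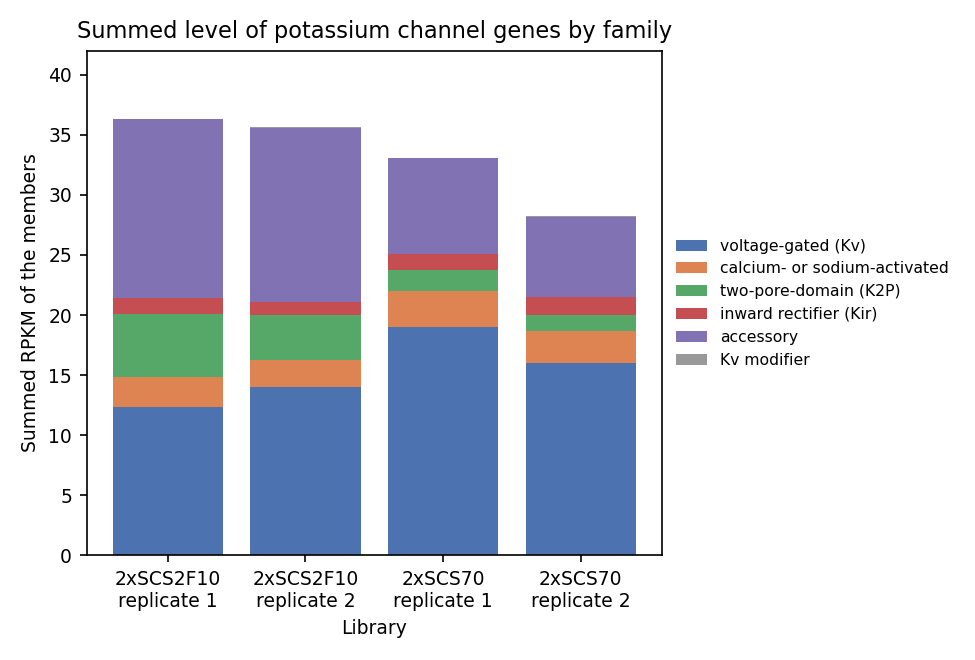
Summed RPKM of the 92 members in each library, stacked by family, on a linear axis from 0. The heights are in RPKM without scaling between libraries. The accessory and K2P parts are taller in 2xSCS2F10 and the Kv part is taller in 2xSCS70, and the Kv modifier part, at most 0.041 RPKM, is too thin to see.

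The lines were compared across the whole table with edgeR's quasi-likelihood test, with Benjamini-Hochberg adjustment over all 14496 genes tested and a threshold of 0.05. The filter on low counts let 27 members (29.3%) into the test, and 65 members stayed untested, the most abundant of them Kcnk4 with at most 13 fragments in a library. Of the 27, 6 were higher and 10 lower in 2xSCS70, or 59.3% in either direction. The same test called 40.6% of all genes tested, 18.8% as higher and 21.8% as lower. In 5 of the 27, namely Kcna3, Kcnh1, Kcnh3, Kcnk5 and Kcnu1, the libraries of 1 line held at most 3 fragments each, so these entered the test through the line in which they were high. All 5 were called, so that the 59.3% rests in part on the filter. The cut at 3 fragments can miss further such members. Kcnab2 and Kcnab3, with 0 and 7 and with 6 and 4 fragments in 2xSCS2F10, were called as higher in 2xSCS70. Kcnj10, with 2 and 4 fragments against 10 and 9, was not called. These genes may also have entered the test through 2xSCS70. How many of all genes tested entered in this way was not counted. The median log2 fold change of the tested members was -0.07, also with genes at 0 in a line set to their bound, and that of all genes tested was 0.02. In 21 of the 27 the libraries of the lines did not overlap in scaled counts, which held for 77.4% of all genes tested. The calls of Kcnab1 and Kcnk2 remained when any 1 library was left out. Those of the other 14 ended without 2xSCS70 replicate 1 and also without its replicate 2. Among all genes the share called as higher was 1.66% and 1.81% in these fits and that called as lower 3.46% and 3.53%.

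**Figure D3:**
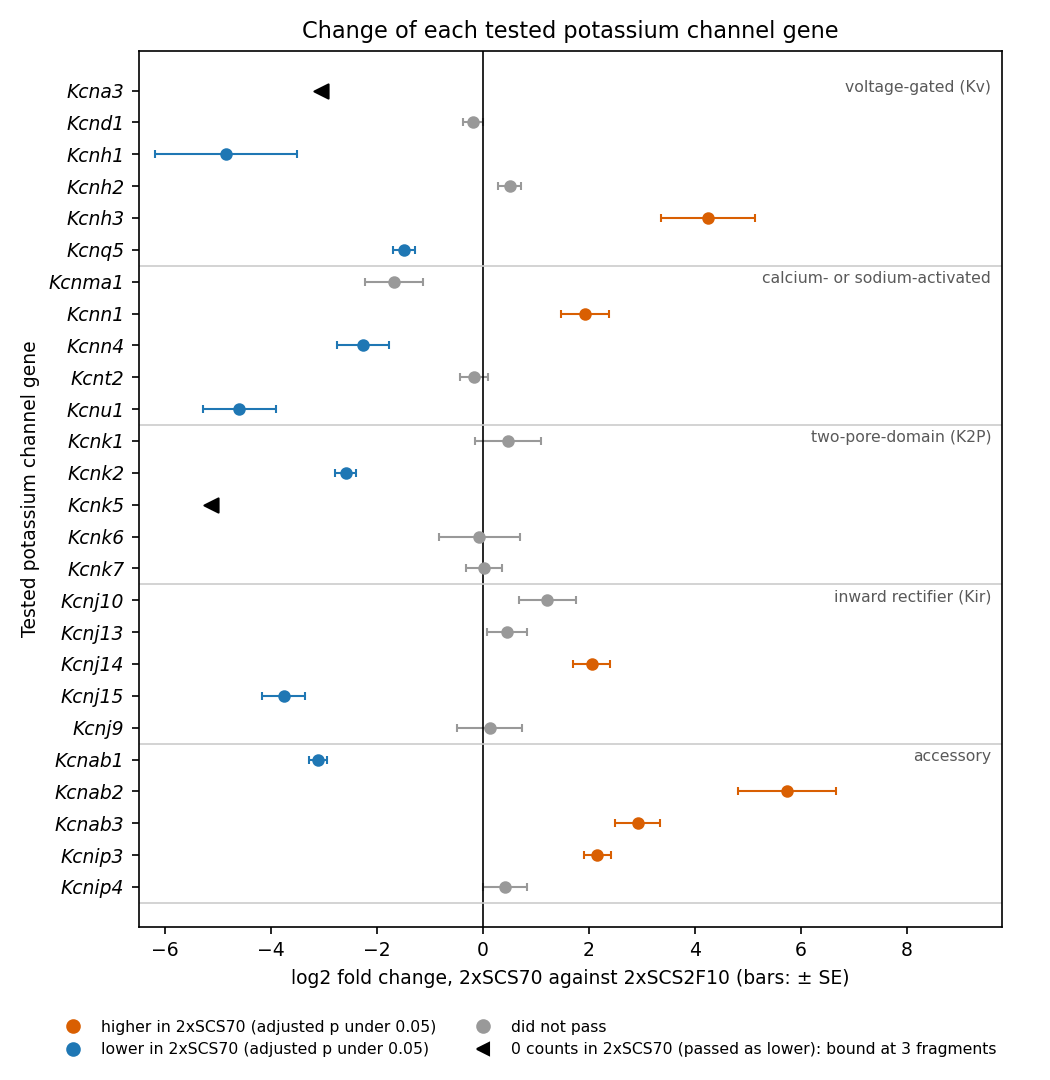
Log2 fold change with its SE for 26 tested members, from edgeR on 4 libraries, by family. Among accessory subunits Kcnab1 lies left of 0 while Kcnab2, Kcnab3 and Kcnip3 lie right of it, and triangles mark Kcna3 and Kcnk5, whose 0 counts in 2xSCS70 allow a bound alone.

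Of the 16 called members, 6 were at 1 RPKM or more in a line, and the bases upstream of their starts are shown so that the start regions of genes that moved each way can be set beside each other. Each is the 250 bases before the RefSeq start (GRCm38.p6) nearest to the 5′ end of the gene in the deposited tables, read 5′ to 3′ along the gene, with every CG in capitals. The first 3 genes were lower and the last 3 higher in 2xSCS70. Their places are chr3:65108764-65109013 (plus strand) for Kcnab1, chr1:189344193-189344442 (minus strand) for Kcnk2 and chr1:21961943-21962192 (minus strand) for Kcnq5. Those of the other three are chr4:152477550-152477799 (minus strand) for Kcnab2, chr2:127521393-127521642 (minus strand) for Kcnip3 and chr8:70857009-70857258 (minus strand) for Kcnn1.
Kcnab1: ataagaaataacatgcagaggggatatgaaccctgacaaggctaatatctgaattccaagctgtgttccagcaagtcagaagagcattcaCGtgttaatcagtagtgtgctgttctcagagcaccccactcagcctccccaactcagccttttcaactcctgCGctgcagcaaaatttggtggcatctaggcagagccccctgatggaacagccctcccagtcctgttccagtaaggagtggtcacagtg
Kcnk2: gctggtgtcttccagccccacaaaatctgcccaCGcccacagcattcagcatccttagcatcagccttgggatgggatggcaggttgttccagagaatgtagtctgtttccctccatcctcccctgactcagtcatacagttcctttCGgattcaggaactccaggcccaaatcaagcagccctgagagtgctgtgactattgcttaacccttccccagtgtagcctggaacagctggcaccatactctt
Kcnq5: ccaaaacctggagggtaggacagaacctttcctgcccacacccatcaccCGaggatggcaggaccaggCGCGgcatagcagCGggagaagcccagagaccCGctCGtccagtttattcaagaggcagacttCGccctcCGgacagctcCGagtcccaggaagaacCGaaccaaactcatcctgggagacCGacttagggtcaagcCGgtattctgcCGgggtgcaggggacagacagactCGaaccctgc
Kcnab2: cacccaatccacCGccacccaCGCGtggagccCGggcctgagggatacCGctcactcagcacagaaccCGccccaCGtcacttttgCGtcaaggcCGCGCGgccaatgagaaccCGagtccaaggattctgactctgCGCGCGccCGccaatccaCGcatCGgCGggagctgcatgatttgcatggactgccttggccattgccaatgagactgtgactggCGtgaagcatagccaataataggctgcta
Kcnip3: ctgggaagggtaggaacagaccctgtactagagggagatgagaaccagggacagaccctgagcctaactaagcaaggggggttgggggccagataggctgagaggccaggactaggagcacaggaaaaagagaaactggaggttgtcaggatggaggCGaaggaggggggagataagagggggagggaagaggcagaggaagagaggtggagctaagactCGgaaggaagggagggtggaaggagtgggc
Kcnn1: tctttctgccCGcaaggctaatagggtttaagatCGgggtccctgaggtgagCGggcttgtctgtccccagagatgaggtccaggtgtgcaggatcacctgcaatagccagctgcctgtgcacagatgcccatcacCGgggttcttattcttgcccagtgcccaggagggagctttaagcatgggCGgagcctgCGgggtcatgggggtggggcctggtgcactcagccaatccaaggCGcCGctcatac
The dinucleotide CG, which reads the same on both strands, occurred 2 times before Kcnab1, 2 times before Kcnk2 and 14 times before Kcnq5. It occurred 20 times before Kcnab2, 2 times before Kcnip3 and 8 times before Kcnn1. Among the printed starts, rich and poor stretches were thus found in both directions. RefSeq gives each of these genes 2 to 4 starts, and which were in use was not tested. The other starts held 6 and 1 CG for Kcnab1, whose printed start lies 629 bases from the deposited end. For Kcnip3 they held 23 and 4 CG, and for Kcnab2 3 and 5. Over all 32851 RefSeq starts the median was 6 and 92.1% held at least 1 CG. Among the printed starts the GC box GGGCGG, searched on both strands, lay once before Kcnab2 and once before Kcnn1. It was in 32.7% of all starts. RefSeq gave starts for 67 of the 92 members, 92 starts in all, with a median of 7 CG. For the 36 genes among them with at most 3 fragments in every library the median was 8, and for the 8 genes at 1 RPKM or more it was 6. The TATA box TATAAA, searched on both strands, was in 3 of the 92 starts of members and in 12.4% of all starts.

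Kcnh2 was the most abundant pore-forming member in both lines. It encodes the ERG channel, known for repolarising the heart and for steadying the resting potential of gut muscle and interstitial cells (chromosome 5, 24319589 to 24351604, mm10). It stood at 7.32 and 9.15 RPKM in 2xSCS2F10 and at 15.2 and 12.8 RPKM in 2xSCS70, both libraries of 2xSCS70 lying above both of 2xSCS2F10. This was 34.1% and 43.3% of the summed RPKM of the pore-forming members in 2xSCS2F10 and 60.7% and 59.6% in 2xSCS70. In scaled counts (CPM) it was at 50.0 ± 14.0 against 70.9 ± 3.57 (mean ± SD, n = 2 libraries per line), and the difference did not pass (log2 fold change 0.51, SE 0.22, edgeR adjusted p = 0.121). The log2 fold change was 0.82 with 2xSCS2F10 replicate 2 left out and 0.23 with its replicate 1 left out. Without 2xSCS70 replicate 1 or 2 it was 0.45 and 0.56. The difference also did not pass with the replicate number as a block, other scalings or filters, or DESeq2. On log2 of RPKM, which lack the scaling between libraries, limma gave adjusted p = 0.0402 with a pseudocount of 1 and 0.0329 with 0.1.

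Among the other Kv channels, 4 were lower in 2xSCS70 and 1 was higher. Kcnq5, a Kv channel of the M-type family that opens near rest (chromosome 1, 21398403 to 21961942), was at 1.30 and 1.15 RPKM in 2xSCS2F10 and at 0.601 and 0.433 RPKM in 2xSCS70. It was 2.80-fold lower in 2xSCS70 (CPM of 12.1 ± 0.440 and 4.31 ± 0.684, log2 -1.49, SE 0.21, adjusted p = 0.00665). Each library of 2xSCS70 lay below both of 2xSCS2F10. Leaving out 2xSCS70 replicate 1 gave an adjusted p of 0.0787 for Kcnq5, and leaving out its replicate 2 gave 0.102.

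Kcnd1, the pore of an A-type current that inactivates fast (chromosome X, 7823843 to 7836503), was at 2.80 and 2.13 RPKM in 2xSCS2F10 and at 2.70 and 2.38 RPKM in 2xSCS70. Its difference, from 6.77 ± 0.448 to 5.95 ± 0.103 CPM, did not pass (log2 -0.19, SE 0.19, adjusted p = 0.472). The sign turned on RPKM. It was the A-type gene that these cells expressed, since its relatives Kcnd2 and Kcnd3 had at most 3 fragments in any library.

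A further 3 called Kv channels were of low level. Kcna3, a delayed rectifier best known from lymphocytes, had 13 and 24 fragments in 2xSCS2F10 and 0 in both libraries of 2xSCS70. Set against a floor of 3 fragments per library, it was at least 8.30-fold lower (adjusted p = 0.00921), and at least 5.75-fold without 2xSCS2F10 replicate 2. Kcnh1, an EAG-type channel, had 9 and 100 fragments in 2xSCS2F10 and 3 and 2 in 2xSCS70. It was called as 28.9-fold lower (log2 -4.85, SE 1.34, adjusted p = 0.0407). The size of this fold depended on the libraries of 2xSCS2F10, at 4.73 without replicate 2 and 53.6 without replicate 1. The fold was 19.0 with the replicate number as a block, and on log2 RPKM the call ended with a pseudocount of 1 (0.17) and of 0.1 (0.093). Kcnh3, a further EAG-type channel, had 0 and 1 fragments in 2xSCS2F10 and 13 and 15 in 2xSCS70, a ratio of 20.8 with an exact 95% interval of 3.44 to 850 (adjusted p = 0.0191). Without 2xSCS2F10 replicate 1 this ratio was 10.3, and without its replicate 2 the gene was at 0 there and at least 3.53-fold higher in 2xSCS70. When 2xSCS70 replicate 1 was left out, the adjusted p was 0.0716 for Kcna3, 0.214 for Kcnh1 and 0.128 for Kcnh3. Without its replicate 2 these were 0.0688, 0.225 and 0.15.

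The Kv channels that carry much of the current in smooth muscle and neurons were nearly absent. Kcna1, Kcna5 and Kcna6, neighbours on chromosome 6 between 126532551 and 126740674, had 1 fragment between them in 4 libraries. Of the neighbours Kcna2, Kcna3 and Kcna10 on chromosome 3, between 107036162 and 107195721, Kcna10 was at 0 throughout and Kcna2 had at most 5 fragments in a library. All 10 Kv modifiers, pore-forming subunits that are silent alone (the Kcnf, Kcng, Kcns and Kcnv genes), had at most 3 fragments in every library and none was tested.

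Accessory subunits changed in opposite directions. The Kv beta subunits bind Kv channels on the inside of the membrane and can speed their inactivation. Kcnab1 (chromosome 3, 65109643 to 65378219) stood at 13.7 RPKM in both libraries of 2xSCS2F10 and at 1.83 and 1.93 RPKM in 2xSCS70. Of all members it was the most abundant in both libraries of 2xSCS2F10, and it was 8.63-fold lower in 2xSCS70 (CPM of 58.3 ± 7.2 and 6.76 ± 0.731, log2 -3.11, SE 0.17, adjusted p = 0.0007). Kcnab2 (chromosome 4, 152390740 to 152477549) had 0 and 7 fragments in 2xSCS2F10 and 289 and 226 in 2xSCS70, or 0 and 0.0627 RPKM against 2.43 and 1.94 RPKM. It was 53.4-fold higher in 2xSCS70 (log2 5.74, SE 0.93, adjusted p = 0.00964). The third gene, Kcnab3, was at 0.0937 and 0.0534 RPKM against 0.802 and 0.512 RPKM, 7.58-fold higher (log2 2.92, SE 0.42, adjusted p = 0.0071).

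Beta subunit mRNA was therefore nearly all Kcnab1 in 2xSCS2F10, at 99.3% and 99.2% of the summed RPKM of the 3 genes, and mixed in 2xSCS70. There Kcnab1 gave 36.2% and 44.0%, Kcnab2 48.0% and 44.3%, and Kcnab3 15.8% and 11.7%. The sum of the 3 was 13.8 RPKM in both libraries of 2xSCS2F10 against 5.06 and 4.38 RPKM, a description with no test. Without 2xSCS2F10 replicate 2, Kcnab2 was at 0 in that line and at least 64.2-fold higher in 2xSCS70, and without replicate 1 it was 26.5-fold higher. Leaving out 2xSCS70 replicate 1 took the adjusted p of Kcnab2 and Kcnab3 to 0.103 and 0.0969, and leaving out its replicate 2 took it to 0.0985 and 0.0703. That of Kcnab1 was 0.0311 and 0.0285.

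Kcnip3, a calcium-binding partner of A-type channels that also acts as the transcriptional repressor DREAM (chromosome 2, 127456498 to 127521370), rose in 2xSCS70. It was at 0.430 and 0.283 RPKM in 2xSCS2F10 and at 2.10 and 1.63 RPKM in 2xSCS70, 4.47-fold higher (log2 2.16, SE 0.26, adjusted p = 0.00431). Its relative Kcnip4 was at 0.429 and 0.183 RPKM against 0.473 and 0.461 RPKM, with libraries that overlapped in CPM (adjusted p = 0.45), and Kcnip1 and Kcnip2 had at most 1 fragment in a library. The pore they assemble with, Kcnd1, did not pass, as given above. Without 2xSCS70 replicate 1 the adjusted p of Kcnip3 was 0.08 and without replicate 2 it was 0.0672.

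The BK beta subunits Kcnmb1 to Kcnmb4 had at most 5 fragments in any library, and the single-span subunits Kcne1 to Kcne4 at most 6. Their summed levels were at most 0.236 and 0.124 RPKM.

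Tandem-pore channels, which carry a leak of potassium at rest, were lower in 2xSCS70 where they passed. Kcnk2, a TREK-type channel opened by stretch and by fatty acids (chromosome 1, 189207930 to 189344192), was at 2.93 and 2.82 RPKM in 2xSCS2F10 and at 0.626 and 0.509 RPKM in 2xSCS70. The libraries of the lines were far apart and those within a line close, and the gene was 6.01-fold lower in 2xSCS70 (CPM of 16.2 ± 1.60 and 2.69 ± 0.199, log2 -2.59, SE 0.20, adjusted p = 0.00143). Its adjusted p stayed at 0.0436 and 0.0442 without 2xSCS70 replicate 1 or 2. In the annotation, 14.4% of its exon bases overlap an antisense RNA, A430027H14Rik, and the library kit does not mark strand.

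Kcnk5, a TASK-type channel that responds to outside pH, differed between the libraries of 2xSCS2F10, with 129 and 29 fragments, and had 0 in both libraries of 2xSCS70. It was at least 35.1-fold lower in 2xSCS70 (adjusted p = 0.0151), at least 13.1-fold without 2xSCS2F10 replicate 1 and at least 57.1-fold without its replicate 2. The adjusted p was 0.0902 without 2xSCS70 replicate 1 and 0.0866 without its replicate 2, and 0.0667 on log2(RPKM + 1). Kcnk1, Kcnk6 and Kcnk7 were tested and did not pass, with RPKM between 0.0311 and 0.626 in every library and lines that overlapped in CPM. Kcnk3, an acid-sensitive leak channel, had at most 1 fragment in a library.

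Calcium- and sodium-activated channels split. Kcnn1, an SK channel (chromosome 8, 70842049 to 70857008), was at 0.206 and 0.427 RPKM in 2xSCS2F10 and at 1.61 and 1.33 RPKM in 2xSCS70. It was 3.80-fold higher in 2xSCS70 (CPM of 1.88 ± 1.13 and 7.13 ± 0.435, log2 1.92, SE 0.46, adjusted p = 0.0271), and 6.57-fold without 2xSCS2F10 replicate 2. Kcnn4, the intermediate-conductance channel of fibroblasts and blood cells, was at 0.798 and 0.383 RPKM against 0.187 and 0.0957 RPKM, 4.80-fold lower (log2 -2.26, SE 0.50, adjusted p = 0.022). The other SK genes, Kcnn2 and Kcnn3, had at most 2 fragments in a library, and Kcnn3 is the SK gene known from PDGFRA-positive cells of gut muscle. Of the other markers of those cells, P2ry1 had at most 1 fragment in a library. Pdgfra itself stood at 3.26 and 5.63 RPKM in 2xSCS2F10 and at 3.82 and 3.90 RPKM in 2xSCS70 and did not pass. Kcnu1, a pH-sensitive relative of the BK channel known from sperm, had 39 and 18 fragments in 2xSCS2F10 and 1 and 2 in 2xSCS70. It was lower by a ratio of 25.6 with an exact 95% interval of 8.33 to 128 (adjusted p = 0.00784), and by 16.3 without 2xSCS2F10 replicate 1 and 40.8 without 2xSCS70 replicate 2. With 2xSCS70 replicate 1 left out, the adjusted p was 0.172 for Kcnn1, 0.121 for Kcnn4 and 0.0992 for Kcnu1, and without its replicate 2 it was 0.154, 0.18 and 0.0812.

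The BK pore gene Kcnma1, a main calcium-activated channel of smooth muscle (chromosome 14, 23298694 to 24004205), was low in every library. It had 15 and 25 fragments in 2xSCS2F10 and 12 and 5 in 2xSCS70, or 0.0759 and 0.108 RPKM against 0.0487 and 0.0207 RPKM. The libraries did not overlap, but the difference did not pass (log2 -1.68, SE 0.55, adjusted p = 0.0622). With 2xSCS2F10 replicate 1 left out it was lower (log2 -2.02, adjusted p = 0.00107), and without 2xSCS70 replicate 1 it stood at log2 -2.32 (adjusted p = 0.163). The low BK level stood beside smooth muscle markers that ranged widely in 2xSCS2F10. Acta2 was the highest, at 1411 and 2054 RPKM, while Myh11 was at 5.06 and 13.3 RPKM and Des at 1.07 and 1.70 RPKM. Kcnt2 did not pass (log2 -0.16, SE 0.27, adjusted p = 0.65), at 5.88 ± 1.63 and 5.25 ± 0.190 CPM. The sign turned on RPKM and without 2xSCS2F10 replicate 2. Kcnt1, its relative, had at most 6 fragments in a library.

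No inward rectifier reached 1 RPKM in a library. Kcnj15 (chromosome 16, 95257651 to 95300258) was at 0.792 and 0.456 RPKM in 2xSCS2F10 and at 0.0428 and 0.0624 RPKM in 2xSCS70. It was 13.5-fold lower in 2xSCS70 (CPM of 4.51 ± 1.18 and 0.332 ± 0.111, log2 -3.76, SE 0.41, adjusted p = 0.00343). Kcnj14 moved the other way, at 0.150 and 0.0899 RPKM against 0.578 and 0.579 RPKM, 4.14-fold higher (log2 2.05, SE 0.36, adjusted p = 0.0116). Without 2xSCS70 replicate 1 the adjusted p was 0.0641 for Kcnj15 and 0.116 for Kcnj14, and without its replicate 2 it was 0.0517 and 0.13. Kcnj9, Kcnj10 and Kcnj13 were tested and did not pass (adjusted p = 0.883, 0.131 and 0.369).

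The Kir genes best known in vessels and gut muscle were at or near 0. Kcnj11, a pore of ATP-sensitive channels, had 0 fragments in all libraries, and Kcnj8, the pore of those of smooth muscle, had 4 fragments in 2xSCS2F10 replicate 2 and 0 elsewhere. Kcnj2, the classical strong rectifier, had at most 2 fragments in a library. Of their sulfonylurea receptor partners, Abcc8 was at 0 throughout and Abcc9 stood at 0.0789 and 0.0225 RPKM in 2xSCS2F10 and at 0.0548 and 0.0905 RPKM in 2xSCS70 (adjusted p = 0.678). Fragment numbers as low as those of the Kir genes do not show a difference at this depth, at which 3 fragments corresponded to 0.109 to 0.157 CPM.

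Replicates of 2xSCS2F10 differed more than those of 2xSCS70. With 0.01 added to each CPM, replicates lay over 2-fold apart for 8 of the 27 tested members (29.6%) in 2xSCS2F10 and for 2 (7.41%) in 2xSCS70, against 12.8% and 3.84% of all genes tested. Among the 8 in 2xSCS2F10, Kcnh3 (0 and 1), Kcnab2 (0 and 7), Kcnj9 (8 and 3) and Kcnk1 (7 and 3) rested on few fragments. At such numbers counting error alone can exceed 2-fold. The 2 in 2xSCS70 were Kcnk6 and Kcnma1, and Kcnu1, with 1 and 2 fragments there, was 2.27-fold apart without the added value. The widest among the called members with reads in both replicates were Kcnh1, 11.4-fold higher in replicate 2, and Kcnk5, 4.35-fold higher in replicate 1. In the same pair the smooth muscle marker Myh11 stood at 5.06 and 13.3 RPKM and the mesothelial marker Krt19 at 93.4 and 23.8 RPKM. Their part in the differences of Kcnh1 and Kcnk5 was not tested.

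Genes that work with potassium channels or move potassium were taken from a list of 15 channel partners and 20 transport genes. Of 8 partners tested, 1 was higher and 2 lower in 2xSCS70, and of 16 transport genes tested, 4 were higher and 5 lower. The median log2 fold change over these 24 genes was 0.02, as over all genes tested. Together 12 of 24 were called, against 40.6% of all genes tested.

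Subunits of the sodium pump, which brings potassium into the cell, moved unequally. The beta subunit Atp1b1 was at 80.9 and 93.0 RPKM against 41.5 and 40.1 RPKM, 2.54-fold lower (log2 -1.34, SE 0.19, adjusted p = 0.00648), and the pump regulator Fxyd5 was 2.64-fold lower (adjusted p = 0.0069). A further beta subunit, Atp1b3, was at 49.4 and 50.4 RPKM against 65.0 and 58.3 RPKM and did not pass (log2 0.06, SE 0.14, adjusted p = 0.754). The beta subunit Atp1b2, with 0 and 2 fragments against 20 and 21, had a ratio of 15.2 with an exact 95% interval of 3.95 to 130 (adjusted p = 0.0258).

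Potassium-chloride cotransporters carry potassium out of the cell with chloride. Slc12a5, the neuronal one, had 6 and 4 fragments in 2xSCS2F10 and 195 and 158 in 2xSCS70, or 0.0395 and 0.0225 RPKM against 1.03 and 0.852 RPKM. It was 25.9-fold higher in 2xSCS70 (log2 4.69, SE 0.32, adjusted p = 0.00112), and its call remained when any 1 library was left out. Slc12a7 was 1.54-fold higher (CPM of 78.8 ± 11.3 and 122 ± 10.5, adjusted p = 0.0291), and Slc12a4 did not pass (adjusted p = 0.139). Slc12a2, which carries potassium in with sodium and chloride, was at 10.2 and 8.30 RPKM against 13.9 RPKM in both libraries of 2xSCS70 and missed the threshold (log2 0.36, SE 0.12, adjusted p = 0.0668). The lysosomal potassium channel Tmem175 was 1.54-fold lower (adjusted p = 0.0237).

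Among channel partners, the scaffold Dlg1, which clusters Kv and Kir channels, was 2.17-fold lower in 2xSCS70 (CPM of 361 ± 91.5 and 167 ± 5.37, log2 -1.12, SE 0.20, adjusted p = 0.0128). Akap9, an anchor of the channel complex of Kcnq1, was 1.79-fold lower (adjusted p = 0.0136), and Kcnq1 itself had at most 1 fragment in a library. Lrrc55, a gamma subunit of BK channels, was 4.64-fold higher at a level of at most 0.269 RPKM (adjusted p = 0.0185). Rest, a repressor of neuronal genes that include ion channels, was at 9.37 and 11.3 RPKM in 2xSCS2F10 and at 13.8 and 13.5 RPKM in 2xSCS70 and did not pass (log2 0.14, SE 0.20, adjusted p = 0.597). Without 2xSCS70 replicate 1 or 2 the calls of the partners and transport genes named here ended, except that of Slc12a5. The adjusted p values then lay between 0.0926 and 0.233, the lowest for Atp1b1 and the highest for Slc12a7. With the replicate number as a block the call of Tmem175 ended (0.0501). For Atp1b2 the ratio was 7.53 without 2xSCS2F10 replicate 1, and without its replicate 2 the gene was at least 5.15-fold higher. On log2(RPKM + 1) values the calls of Akap9 and Tmem175 ended (0.0687 and 0.246), and so they did on log2(RPKM + 0.1) values (0.0607 and 0.244).

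**Figure D4:**
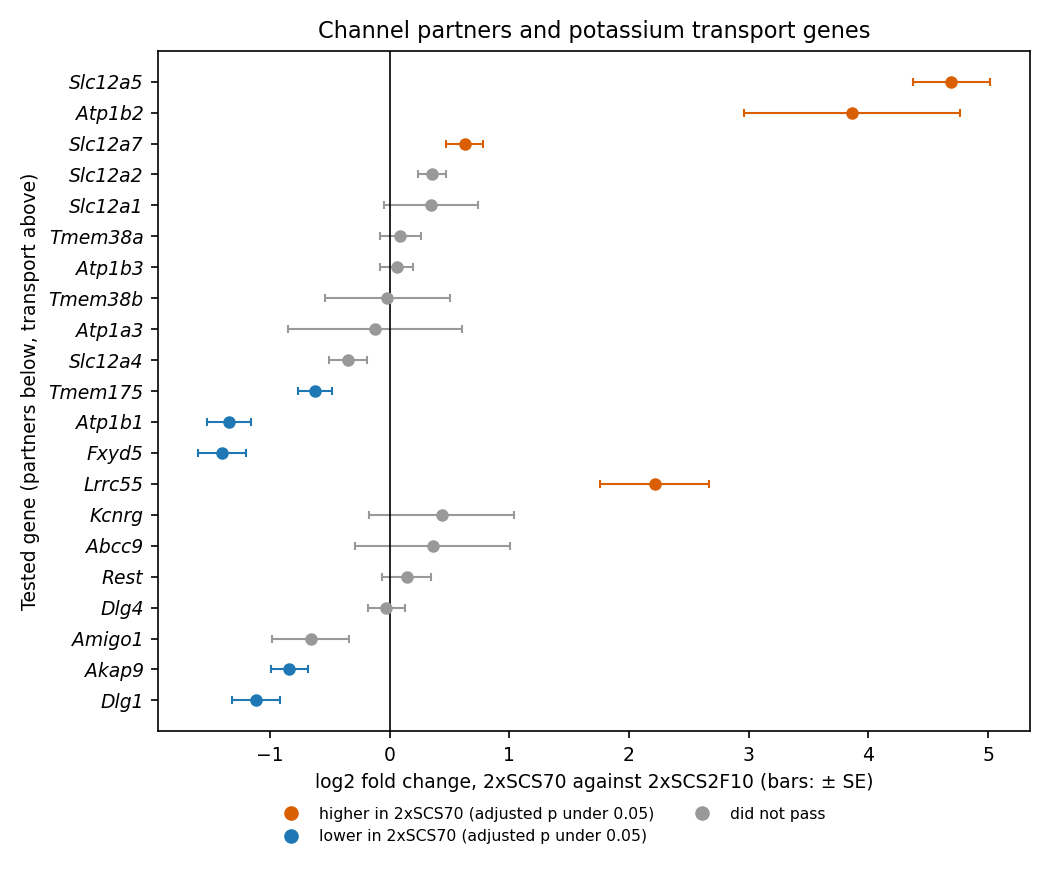
Log2 fold change with its SE for 21 tested channel partners (lower part) and potassium transport genes (upper part), from edgeR on 4 libraries. Slc12a5 lies farthest to the right, and Atp1b1, Fxyd5 and Dlg1 lie left of 0.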

How the data were processed

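RNA of 2 lines was measured in 2 libraries each, sequenced from an Illumina TruSeq mRNA kit, which does not mark strand. Per the submitters' processing notes, tools included TopHat2 2.0.6, Bowtie and HTSeq on mm10, while the counting annotation was not given in the sources used here. Per the file headers, the deposited values are counts and RPKM for each gene. RPKM equalled the count divided by the tables' length column and by a fixed number of reads per library, from 50468212 to 62928743, with no scaling between libraries. The labels gave the line of each sample.

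The lines were compared on the deposited counts by edgeR 4.0.16 under R 4.3.3 (TMM scaling, filterByExpr, quasi-likelihood test), with 14496 genes tested. CPM use the TMM factors. SEs were obtained from each log2 fold change and its F statistic. A gene at 0 in a line was compared with a floor of 3 fragments per library, and for one with 1 to 3 fragments the ratio carries an exact 95% binomial interval. Both cover counting error only. The test was also checked on simulated data. Overlapping exons were read from GENCODE on the same build, where 22 of the 92 members share exon bases with another gene. Promoter sequences are from RefSeq (GRCm38.p6). Plots were made with matplotlib 3.10.9.

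The members and lists were chosen with earlier results of these data known. The genes named were all members at 1 RPKM or more in both libraries of a line, called members changed 4-fold or more, 14 members of interest in gut muscle, and the called partner and transport genes. Untested and lower members are named to account for families. Some genes that these rules take, among them 1 tested member, are counted but not reported here by name. Alternatives tried were DESeq2 1.42.0, a block for the replicate number, other scalings (upper quartile, RLE), leaving the filter out or raising it to a mean of 5 CPM, limma 3.58.1 on log2(RPKM + 1) and log2(RPKM + 0.1), each library left out, and other detection limits. In fits on 3 libraries, the single library of a line was assumed to have the spread of the other line.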

Additional observations from a re-analysis of the deposited data

How the results depend on the processing

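The 6 higher and 10 lower members were the same 16 genes under the replicate block, RLE and upper quartile scaling, and DESeq2, and also with no filter, which added 1 lower call. On log2(RPKM + 1) values 14 of the 16 calls remained, and on log2(RPKM + 0.1) values 15. At a filter of a mean of 5 CPM only 7 members were tested, of which 1 was higher and 3 were lower, and the higher partner and transport genes fell from 5 to 1. When libraries were left out in turn, the higher members numbered 0 to 7 and the lower ones 2 to 11, and the higher partner and transport genes 1 to 8 and the lower ones 0 to 9. The low ends came without a 2xSCS70 library, when the spread came from the 2xSCS2F10 pair alone. On log2(RPKM + 1) values 4 partner and transport genes were lower instead of 7. With the replicate number as a block, members stayed at 6 higher and 10 lower, and partner and transport genes were 4 and 6. The column headers carry the same tag, L1 or L2, in both libraries of a number, and the labels do not say what it marks. Deviations from the line means had a correlation of 0.054 across genes between libraries of the same number, which does not settle whether they share a batch.

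At 0.5 RPKM, 12 members were detected in 2xSCS70 instead of 7 and 5 in both lines instead of 3, and at 2 RPKM 2 in 2xSCS70. The sign of Kcnd1 turned on log2(RPKM + 1) and log2(RPKM + 0.1) values (log2 0.035 and 0.050), and so did that of Kcnt2 (0.051 and 0.093). With libraries left out, Kcnt2 lay between -0.44 and, without 2xSCS2F10 replicate 2, 0.14. The median log2 fold change of all genes was 0.15 and 0.25 on these RPKM values and 0.11 under upper quartile scaling, against 0.02. For the 53 members with at most 3 fragments in every library, depth limits any comparison.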

Other observations

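Kcnq1ot1, the antisense RNA that starts inside Kcnq1, is not a member by name. Kcnq1 itself had 1 fragment in each library of 2xSCS2F10 and 0 in those of 2xSCS70. Of the 22 members whose annotated exons overlap another gene, 2 overlap a protein-coding one, Kcnh3 with Mcrs1 by 1 base and Kcnh7 with Gca by 696 bases. Kcnh7 had at most 2 fragments in a library although Gca stood between 1.52 and 3.74 RPKM.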
